A study of Rattus norvegicus with 6 samples.

Results

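The tricarboxylic acid cycle enzymes described here are 9 genes, *Cs*, *Idh2*, *Idh3a*, *Ogdh*, *Sucla2*, *Suclg1*, *Sdha*, *Sdhb* and *Mdh2*, taken by symbol from the 33022 loci of a table of mRNA levels in rat liver. Each symbol was found on 1 locus. The rule that picks them uses symbols alone. Male obesity-prone Sprague Dawley rats weighing 160 to 190 g at the start, whose age is not given in the sources used here, were kept for 2 weeks on the control diet TD 08485 (CD) or on TD 88137, a Western diet rich in milk fat and sucrose (WD). All rats were fasted overnight and refed their own diet before the left lobe of the liver was taken, so that CD and WD livers share that fast and meal. Total RNA was measured together with RNA from a sucrose gradient, which was split into a light fraction, with mRNAs bound to 3 or fewer ribosomes, and a heavy fraction, with mRNAs bound to 4 or more. RNA of 3 rats was pooled for each of the 6 libraries (CD and WD in total RNA, light and heavy fraction), so no value has a replicate and no p-value can be given.

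The tricarboxylic acid cycle runs in the mitochondrial matrix, where it oxidizes the acetyl group of acetyl-CoA to carbon dioxide and passes the electrons to NAD and to the ubiquinone pool of the respiratory chain. All of its enzymes are encoded in the nucleus, translated on cytosolic ribosomes and imported. In liver the cycle also feeds gluconeogenesis, amino acid breakdown and, through exported citrate, fatty acid synthesis.

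Levels are given in FPKM, mapped fragments scaled by transcript length and library size, together with the number of fragments inferred from the FPKM values. Ratios of FPKM are followed by a 95% interval from an exact binomial calculation on those fragments. The interval covers counting error between 2 libraries and not differences between rats, and reads copied by PCR are not independent molecules. The study's methods set thresholds of 1.5 and 0.75 on the heavy to light ratio in the CD relative to that in the WD. Here the same thresholds were set on WD over CD and also on abundance and on the heavy to light ratio itself, which the methods do not do, and since they are not symmetric a count can differ with the direction of the ratio. They were read against 10201 loci that had a symbol and averaged 1 FPKM or more over the libraries. Fragment numbers were obtained for all 9 genes, which summed to between 372 fragments in the CD light fraction and 848 in CD total RNA. An interval leaves out 1 more readily with more fragments, and most members had more than the median locus in each library. The shares of loci whose interval left out 1, given below, are therefore not matched for depth.

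The libraries carried the RNA of liver. Summed over 6 hepatocyte markers, levels ran from 42592 to 129086 FPKM, and 3 of 3 muscle markers and 3 of 4 adipocyte markers were listed at 0 in every library. The WD light library stood apart in depth, with a median of 23 inferred fragments per locus against 9 to 14 in the other 5 libraries, and in the blood markers described with *Suclg1*. In whole liver RNA, fewer cells of a type and less RNA per cell cannot be told apart.

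Between the diets, most cycle mRNAs had total RNA ratios between 0.909 and 1.22, several of them with intervals that reached past a threshold. *Mdh2* was the 1 member at or below 0.75 in total RNA and in both gradient fractions. By point values, 7 of 9 members in the CD and 6 in the WD were higher in the heavy than in the light fraction. So were 5123 and 4943 of 10201 loci. The intervals of *Cs*, *Ogdh*, *Sdha* and *Mdh2* lay above 1 in both diets. *Idh3a* and *Suclg1* had ratios below 1 that rest on few heavy fraction fragments, and only the interval of *Suclg1* in the WD left out 1. *Sdhb* had ratios near 1 with intervals that held 1. *Suclg1* had a level in the WD light fraction far from its other 5 values.

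In total RNA of rats fed the CD, *Mdh2* was the most abundant member at 145.5 FPKM, followed by *Sdhb* at 85.3 FPKM. The step from *Mdh2* to *Sdhb* was 1.70-fold (95% interval, 1.30 to 2.26). *Sdhb* and *Sdha* (81.3 FPKM) were not told apart by their interval, and neither were *Cs* (62.0 FPKM) and *Ogdh* (56.7 FPKM). *Sucla2* followed at 28.7 FPKM, below *Ogdh* by an interval that left out 1. *Idh2* (8.35 FPKM), *Idh3a* (6.19 FPKM) and *Suclg1* (5.17 FPKM) formed the low end, with intervals between neighbours that held 1. *Mdh2* was the highest member in each of the 6 libraries, and in the WD total, WD light and WD heavy libraries its interval against the next gene held 1.

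**Figure D1:**
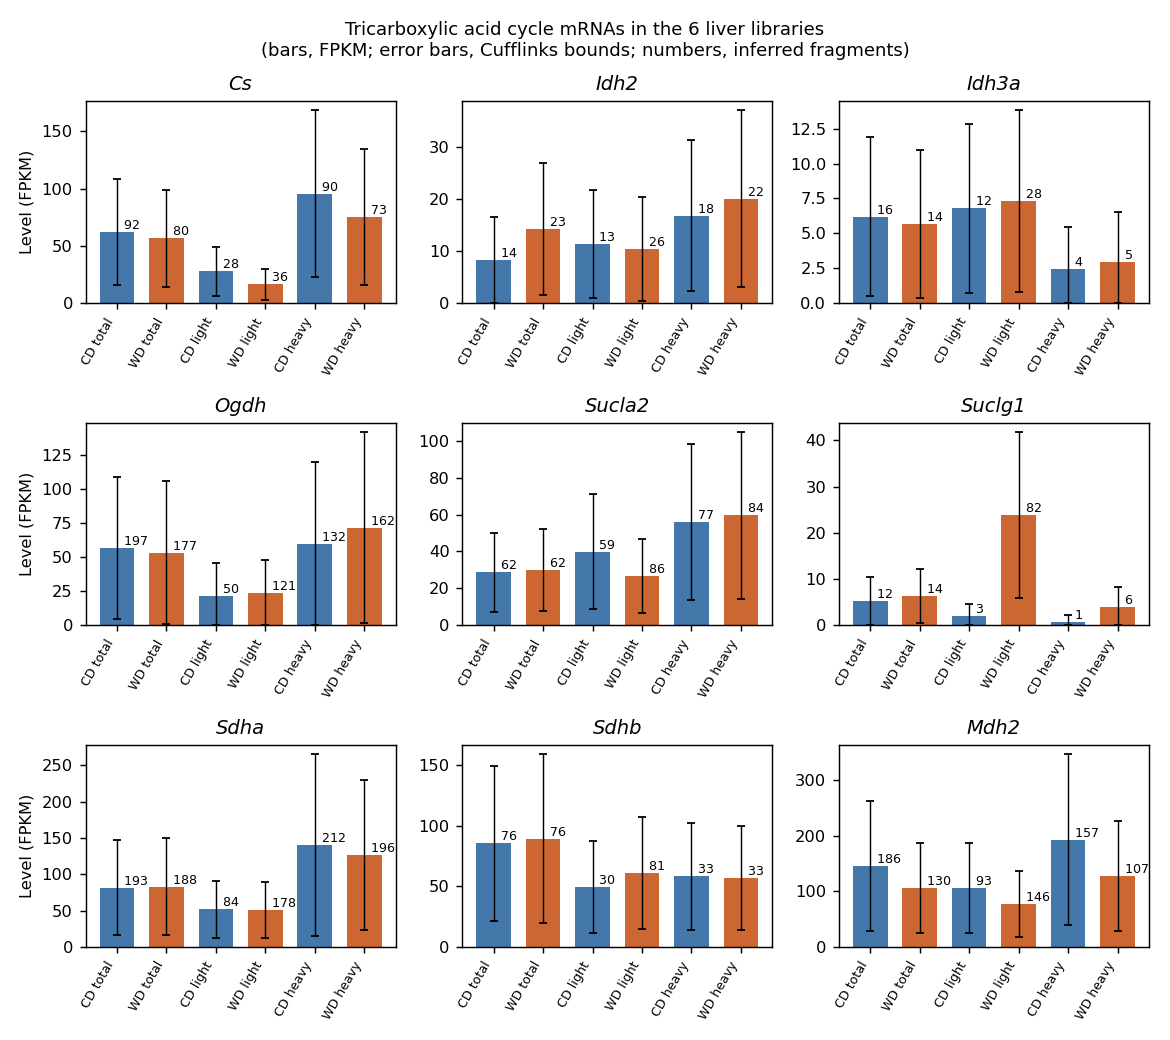
Bars show the level in FPKM of each cycle mRNA in the 6 libraries (blue, CD; orange, WD), with 1 pool of 3 rats per bar, the lower and upper bounds that Cufflinks gave as error bars, and the inferred fragments beside each bar. The tall WD light bar of *Suclg1*, 23.8 FPKM from 82 fragments, stands against at most 6.31 FPKM in its other libraries.

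*Cs* encodes citrate synthase, which joins acetyl-CoA to oxaloacetate at the entry of the cycle. Its level was 62.0 FPKM (92 fragments) in CD total RNA and 56.4 FPKM (80 fragments) in WD total RNA. In the light fraction it was 27.6 FPKM (28 fragments) with the CD and 16.3 FPKM (36 fragments) with the WD, and in the heavy fraction 95.3 FPKM (90 fragments) with the CD and 75.5 FPKM (73 fragments) with the WD. The heavy fraction held the highest and the light fraction the lowest values in both diets, and each WD value lay below its CD value. The locus of *Cs* is on chromosome 7 (2752679 to 2778963, Rnor_6.0) and is shared between 2 symbols.

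*Idh2* encodes the NADP-dependent isocitrate dehydrogenase of mitochondria, and *Idh3a* the catalytic subunit of the NAD-dependent enzyme of the cycle. *Idh2* was at 8.35 FPKM (14 fragments) and 14.3 FPKM (23 fragments) in CD and WD total RNA, at 11.3 FPKM (13 fragments) and 10.4 FPKM (26 fragments) in the CD and WD light fractions, and at 16.9 FPKM (18 fragments) and 20.1 FPKM (22 fragments) in the CD and WD heavy fractions. *Idh3a* was at 6.19 FPKM (16 fragments) and 5.67 FPKM (14 fragments) in CD and WD total RNA, at 6.79 FPKM (12 fragments) and 7.29 FPKM (28 fragments) in the light fractions, and at 2.43 FPKM (4 fragments) and 2.97 FPKM (5 fragments) in the heavy fractions. *Idh2* was thus highest and *Idh3a* lowest in the heavy fraction, and both rest on few fragments. *Idh2* lies on chromosome 1 (141767939 to 141893705, Rnor_6.0), in a locus that the table shares among 4 symbols, and *Idh3a* on chromosome 8 (59164571 to 59183908).

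*Ogdh* encodes the first component of the 2-oxoglutarate dehydrogenase complex, which makes succinyl-CoA. It was at 56.7 FPKM (197 fragments) and 53.3 FPKM (177 fragments) in CD and WD total RNA, at 21.1 FPKM (50 fragments) and 23.4 FPKM (121 fragments) in the light fractions, and at 59.7 FPKM (132 fragments) and 71.6 FPKM (162 fragments) in the heavy fractions. The light fraction was the low one in both diets, and total RNA and heavy fraction were closer to each other. *Ogdh* lies on chromosome 14 (86345952 to 86613327, Rnor_6.0) in a locus shared among 8 symbols.

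Succinyl-CoA synthetase, which yields a nucleoside triphosphate, pairs the shared alpha subunit *Suclg1* with the ADP-specific beta subunit *Sucla2* or the GDP-specific beta subunit *Suclg2*. *Sucla2* was at 28.7 FPKM (62 fragments) and 29.97 FPKM (62 fragments) in CD and WD total RNA, at 39.9 FPKM (59 fragments) and 26.8 FPKM (86 fragments) in the light fractions, and at 55.9 FPKM (77 fragments) and 59.6 FPKM (84 fragments) in the heavy fractions. *Suclg1* was at 5.17 FPKM (12 fragments) and 6.31 FPKM (14 fragments) in CD and WD total RNA, at 1.89 FPKM (3 fragments) and 23.8 FPKM (82 fragments) in the light fractions, and at 0.677 FPKM (1 fragment) and 3.97 FPKM (6 fragments) in the heavy fractions. *Suclg1* therefore spanned 35.1-fold over the 6 libraries, against 1.81-fold to 5.84-fold for the other 8 members. *Sucla2* lies on chromosome 15 (55461694 to 55516952, Rnor_6.0) and *Suclg1* on chromosome 4 (101180403 to 101210746).

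*Sdha* and *Sdhb* encode the flavoprotein and the iron-sulfur subunit of succinate dehydrogenase, which is also complex II of the respiratory chain. *Sdha* was at 81.3 FPKM (193 fragments) and 82.8 FPKM (188 fragments) in CD and WD total RNA, at 51.8 FPKM (84 fragments) and 50.4 FPKM (178 fragments) in the light fractions, and at 140 FPKM (212 fragments) and 127 FPKM (196 fragments) in the heavy fractions. *Sdhb* was at 85.3 FPKM (76 fragments) and 89.2 FPKM (76 fragments) in CD and WD total RNA, at 49.3 FPKM (30 fragments) and 61.2 FPKM (81 fragments) in the light fractions, and at 58.2 FPKM (33 fragments) and 56.8 FPKM (33 fragments) in the heavy fractions. The pair was alike in total RNA and set apart in the heavy fraction, where only *Sdha* exceeded its total RNA level. *Sdha* lies on chromosome 1 (31545630 to 31570601, Rnor_6.0) and *Sdhb* on chromosome 5 (159484369 to 159505064).

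*Mdh2* encodes mitochondrial malate dehydrogenase, which regenerates oxaloacetate and takes part in the malate-aspartate shuttle. It was at 145.5 FPKM (186 fragments) in CD total RNA and 106 FPKM (130 fragments) in WD total RNA. The light fractions held 106 FPKM (93 fragments) with the CD and 76.8 FPKM (146 fragments) with the WD, and the heavy fractions 193 FPKM (157 fragments) with the CD and 128 FPKM (107 fragments) with the WD. In each kind of RNA the WD library was the lower one. *Mdh2* lies on chromosome 12 (23941447 to 23954431, Rnor_6.0). In RefSeq annotation 1 further gene is named as a copy of *Mdh2* and 1 as a copy of *Cs*, and reads that fit gene and copy alike could be split between them, so both levels are uncertain to that extent.

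Diet ratios in total RNA asked whether the WD altered the abundance of the mRNAs. *Mdh2* was at 0.731 of its CD level (95% interval, 0.580 to 0.919), and it was the 1 member at or below 0.75, a threshold that 22.7% of all loci passed. *Idh2* was at 1.72 of its CD level (0.847 to 3.61), the 1 member at or above 1.5, which 17.7% of loci reached, and its interval held 1. The other 7 members lay between 0.909 (*Cs*, 0.665 to 1.24) and 1.22 (*Suclg1*, 0.524 to 2.89). Among them, *Sdha* had a ratio of 1.02 (0.829 to 1.25) and *Ogdh* of 0.939 (0.762 to 1.16), and both intervals, of the genes with most fragments, lay within the thresholds. Among loci averaging 10 FPKM or more, as 7 members did, 16.2% were at or below 0.75 and 8.77% at or above 1.5. The interval left out 1 for 1 of 9 members, against 9.2% of loci. The median log2 change of the 9 was 0.03, beside 0.02 over all loci.

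In the light fraction, 3 members were at or below 0.75 of their CD level, as were 26.8% of loci, and 1 member was at or above 1.5, as were 25.9% of loci. *Cs* was at 0.591 (95% interval, 0.351 to 1.01), *Sucla2* at 0.670 (0.476 to 0.950) and *Mdh2* at 0.722 (0.553 to 0.947). *Suclg1* was at 12.6 (4.15 to 62.2). The interval left out 1 for *Sucla2*, *Mdh2* and *Suclg1*, that is for 3 of 9 members against 19.5% of loci. *Sdha* at 0.975 (0.748 to 1.28), *Ogdh* at 1.11 (0.794 to 1.58) and *Sdhb* at 1.24 (0.808 to 1.96) stayed within both thresholds. The median log2 change was -0.04 over the 9 members and 0.02 over all loci. Rescaling the libraries to the same summed FPKM shifted the median log2 change of all loci by -0.31 in the light fraction, so a light fraction ratio is to be read relative to the scale of the WD light library. On that scale, where FPKM ratios change by -0.35 in log2, *Sdhb* turned from 0.31 to -0.04, *Ogdh* from 0.15 to -0.20 and *Idh3a* from 0.10 to -0.25. There *Idh2*, at 0.720 (0.357 to 1.53), also lay below 0.75, and the interval of *Cs*, at 0.463 (0.275 to 0.788), left out 1.

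The WD light level of *Suclg1* came from the library in which blood markers also stood out. Of 7 blood markers listed, 4 were found, and their summed level was 414 FPKM in the WD light fraction against 19.0 to 54.6 FPKM in the other 5 libraries. The sum was made by the alpha-globin gene *Hba1* (163 FPKM, 98 fragments) and the beta-globin gene *Hbb* (242 FPKM, 189 fragments), while the erythroid heme synthesis gene *Alas2* was at 7.18 FPKM and the leukocyte gene *Ptprc* at 2.11 FPKM, the lowest value of each over the 6 libraries. Their part in the *Suclg1* value was not tested. Of all loci, 4.75% had a light fraction change as high as that of *Suclg1* or higher.

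In the heavy fraction, which holds the mRNAs with most ribosomes, *Mdh2* was again the 1 member at or below 0.75, at 0.665 of its CD level (95% interval, 0.516 to 0.856). That threshold was passed by 25.8% of loci. *Suclg1* was the 1 member at or above 1.5, a ratio reached by 21.7% of loci, but its value of 5.86 rests on 6 fragments against 1 and its interval ran from 0.711 to 269. *Cs* was at 0.792 (0.573 to 1.09) and *Ogdh* at 1.20 (0.946 to 1.52), with intervals that held 1. *Sdha* at 0.903 (0.739 to 1.10), *Sdhb* at 0.976 (0.584 to 1.63) and *Sucla2* at 1.07 (0.772 to 1.47) were near their CD levels. The interval left out 1 for 1 of 9 members, against 9.41% of loci. The median log2 change was 0.09 over the 9 members and -0.02 over all loci.

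**Figure D2:**
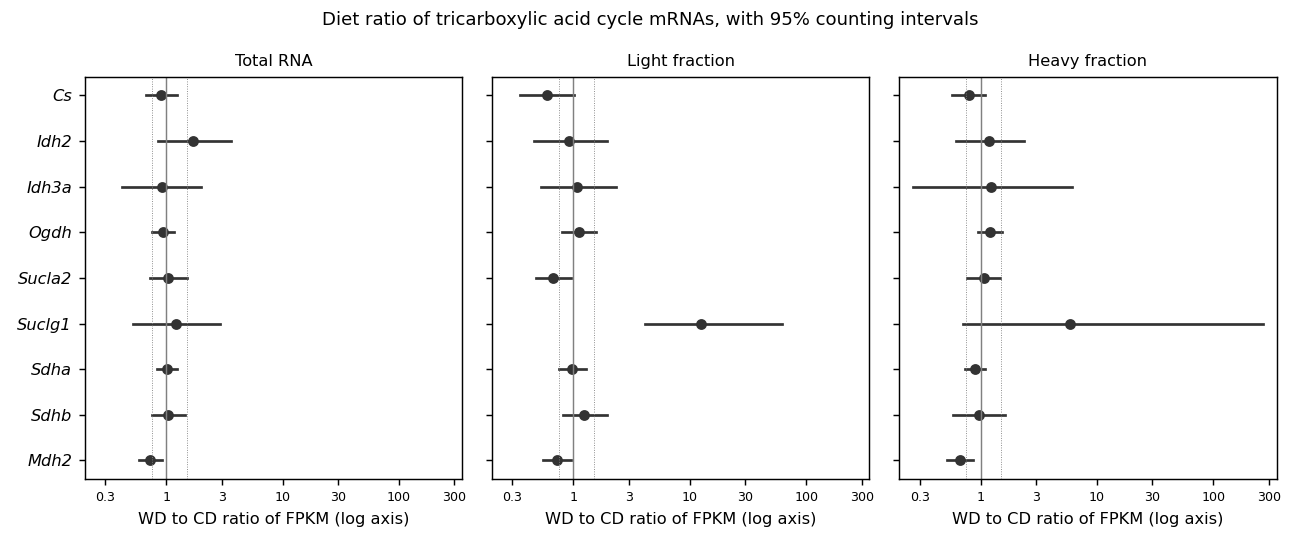
Points show the WD to CD ratio of FPKM for each cycle mRNA in total RNA, light fraction and heavy fraction, on a log axis, with 95% counting intervals as lines, a solid line at 1 and dotted lines at 0.75 and 1.5. *Mdh2* lies left of 0.75 in all 3 panels, and *Suclg1* lies far right in the light fraction at 12.6.

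*Mdh2* was the only one of the 9 members with a ratio of at most 0.75 in total RNA, light fraction and heavy fraction alike, a combination found at 2.52% of all loci. It was also the only one of the 9 whose interval lay below 1 in all 3, which was so for 0.638% of the loci with fragment numbers. *Mdh2* had 93 to 186 fragments per library, while the medians per locus were 9 to 23, so that share is not matched for depth. Outside the 9, *Pdk4*, cytosolic *Mdh1* and *Glud1* of the gene lists used here also had intervals below 1 in all 3. They are among 46 such loci of 7209, and those outside the lists are not named here. The ratios of *Pdk4* were at or below 0.75 in all 3 as well. The 3 ratios of *Mdh2* come from 6 different libraries but from the same pooled livers, so they do not stand for 3 independent groups of animals. When all libraries were put on the same summed FPKM, the log2 change of *Mdh2* was -0.36 in total RNA, -0.82 in the light fraction and -0.61 in the heavy fraction, and the total RNA value no longer passed 0.75, while the 3 intervals still lay below 1. With the thresholds set on CD over WD instead, *Mdh2* passed in the heavy fraction only.

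The sequences upstream of *Mdh2* and of *Ogdh* are shown because these were the 2 members that share the cyclic AMP response element TGACGTCA. Their heavy fraction ratios lay on opposite sides of 1, but the interval of *Ogdh* (0.946 to 1.52) held 1. The windows are the 250 bases before the start of the gene in RefSeq (GRCr8), at chr12:26543842-26544091 on the minus strand for *Mdh2* and chr14:85363781-85364030 on the plus strand for *Ogdh*, printed 5′ to 3′. Capitals mark TGACGTCA and TCGCGAGA, each searched on both strands.
Mdh2: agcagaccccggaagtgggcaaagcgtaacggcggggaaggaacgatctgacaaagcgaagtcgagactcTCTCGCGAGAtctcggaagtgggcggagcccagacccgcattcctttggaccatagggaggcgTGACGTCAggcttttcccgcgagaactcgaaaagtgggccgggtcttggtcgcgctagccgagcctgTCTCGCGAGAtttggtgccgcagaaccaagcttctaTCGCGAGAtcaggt
Ogdh: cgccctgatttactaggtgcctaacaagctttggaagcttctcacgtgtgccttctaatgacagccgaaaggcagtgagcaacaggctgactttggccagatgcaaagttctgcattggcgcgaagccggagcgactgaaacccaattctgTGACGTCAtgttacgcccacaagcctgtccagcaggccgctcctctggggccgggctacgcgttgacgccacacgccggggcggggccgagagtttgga
TGACGTCA begins 117 bases before the start of *Mdh2* and 99 bases before that of *Ogdh*, and was found in 2 of the 8 members with a window and in 1.59% of 33469 promoters. TCGCGAGA was found at 5 positions in the *Mdh2* window, which overlap into 3 places, and in 0.747% of promoters. Neither GCGCATGCG, a form of the NRF1 site, found in 1.35% of promoters, nor TCAAGGTCA, a form of the estrogen-related receptor site, found in 0.388%, was in the windows of the 8 members. The first pair of motifs was chosen after the sequences were seen, and a match is a description of the letters, not of binding. *Idh3a* had no window in the table used.

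Heavy to light ratios asked how each mRNA was spread over the gradient. FPKM is relative to the RNA of its own fraction, so a ratio of 1 does not mean equal numbers of molecules. In rats fed the CD, *Cs* had a heavy to light ratio of 3.45 (95% interval, 2.24 to 5.48), *Ogdh* of 2.84 (2.03 to 4.01), *Sdha* of 2.71 (2.10 to 3.53) and *Mdh2* of 1.81 (1.39 to 2.37). These 4 of 9 members were at or above 1.5, a ratio reached by 32.9% of loci. *Idh2* at 1.49 (0.689 to 3.30), *Sucla2* at 1.40 (0.986 to 2.00) and *Sdhb* at 1.18 (0.699 to 2.01) had intervals that held 1. *Idh3a* at 0.358 (0.0842 to 1.18) and *Suclg1* at 0.358 (0.00682 to 4.46) were the 2 members at or below 0.75, where 36.6% of loci lay, and the latter compares 1 fragment with 3. The interval left out 1 for 4 members, all with a higher heavy fraction, against 30.9% of loci in either direction. The median log2 ratio of the 9 was 0.57, beside 0.01 over all loci.

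In rats fed the WD, *Cs* led again at 4.62 (95% interval, 3.06 to 7.10), followed by *Ogdh* at 3.05 (2.40 to 3.90), *Sdha* at 2.51 (2.04 to 3.09), *Sucla2* at 2.23 (1.63 to 3.04), *Idh2* at 1.93 (1.04 to 3.54) and *Mdh2* at 1.67 (1.29 to 2.16). These 6 of 9 members were at or above 1.5, against 31.4% of loci, and each of their intervals lay above 1. *Idh3a* at 0.407 (0.123 to 1.07) and *Suclg1* at 0.167 (0.0595 to 0.379) were at or below 0.75, against 38.5% of loci. The interval left out 1 for 7 members in all, against 37.9% of loci. *Sdhb* was at 0.929 (0.600 to 1.41). The median log2 ratio was 0.94 over the members and 0 over all loci. Rescaling the libraries to the same sum multiplied the FPKM ratio in the WD by 1.24 at every locus and shifted the median log2 ratio of all loci by 0.26. *Sdhb* was then at 1.15 (0.743 to 1.74). The WD ratios and shares of loci are thus to be read relative to the scale of the WD light library. Across the 9 genes the ratios of both diets had a Spearman rho of 0.917, a description over genes that share libraries and their depth. The relative transcript length inferred from the FPKM steps, up to 3.90 times that of *Sdhb* for *Ogdh*, had a rho of -0.03 with the heavy to light ratio in the CD and of 0.10 in the WD.

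Some of these ratios were smaller and others larger with another denominator. Set against total RNA, the heavy fraction of *Cs* was at 1.54 (95% interval, 1.14 to 2.08) in the CD and 1.34 (0.961 to 1.86) in the WD, and that of *Ogdh* at 1.05 (0.838 to 1.32) and 1.34 (1.08 to 1.67). *Sdha* was at 1.73 (1.41 to 2.11) and 1.53 (1.25 to 1.88), and *Sucla2* at 1.95 (1.38 to 2.77) and 1.99 (1.41 to 2.81). *Mdh2* was at 1.33 (1.07 to 1.65) in the CD and 1.21 (0.926 to 1.57) in the WD, below 1.5 in both. *Ogdh*, *Sdha* and *Sucla2* thus had intervals above 1 by either measure with the WD. *Sdhb* was lower in the heavy fraction than in total RNA, at 0.682 (0.439 to 1.04) in the CD and 0.637 (0.410 to 0.970) in the WD. By this measure 4 of 9 members in the CD and 2 in the WD were at or above 1.5, beside 2993 and 2821 of 10201 loci. At or below 0.75 were 3 members in each diet, beside 3481 loci in the CD and 3583 in the WD.

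**Figure D3:**
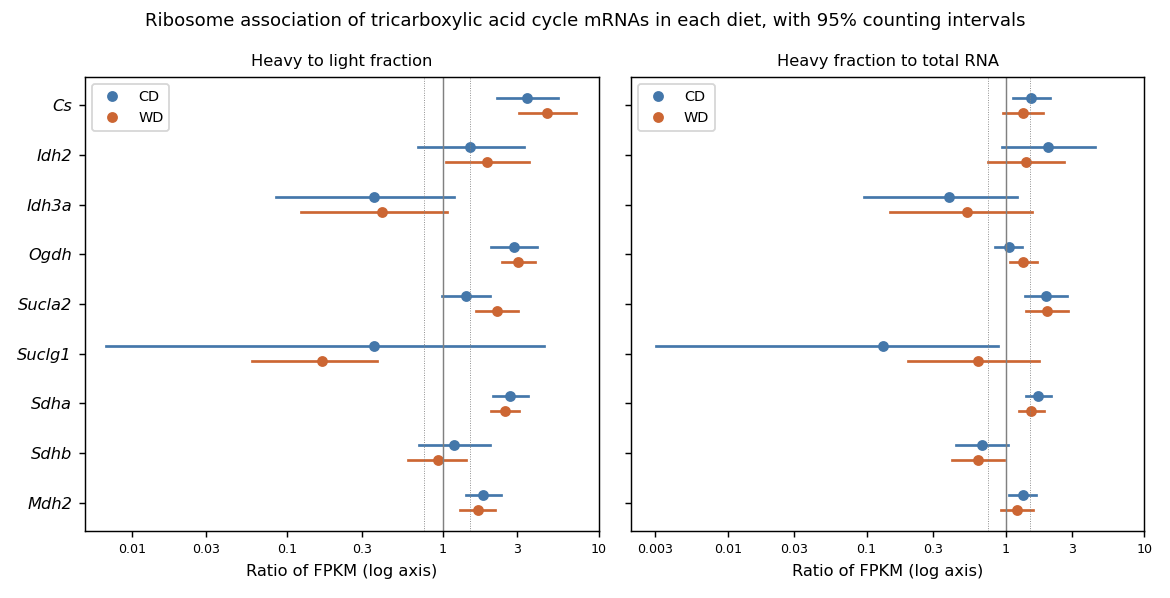
Points show the ratio of FPKM in the heavy fraction to that in the light fraction (left) and in total RNA (right) for each cycle mRNA, on log axes, in the CD (blue) and the WD (orange), with 95% counting intervals as lines and dotted lines at 0.75 and 1.5. In the left panel *Cs*, *Ogdh*, *Sdha* and *Mdh2* lie right of 1 in both diets, while *Idh3a* and *Suclg1* lie left of it with wide intervals.

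Subunits of the same enzyme did not keep the same proportions in every kind of RNA. *Sdhb* stood at 1.05 of *Sdha* (95% interval, 0.794 to 1.38) in CD total RNA and at 1.08 (0.815 to 1.41) in WD total RNA. In the light fraction it stood at 0.952 (0.606 to 1.46) with the CD and 1.21 (0.921 to 1.59) with the WD. In the heavy fraction it stood at 0.415 (0.278 to 0.601) with the CD and 0.449 (0.301 to 0.652) with the WD. The mRNAs of the 2 catalytic subunits were therefore near equal per length in total RNA and light fraction, and *Sdhb* was the lower one in the heavy fraction of both diets.

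For succinyl-CoA synthetase, *Suclg1* was at 0.180 of *Sucla2* (95% interval, 0.0885 to 0.338) in CD total RNA and at 0.211 (0.109 to 0.380) in WD total RNA. It was at 0.107 of *Suclg2* (0.0535 to 0.194) in CD total RNA and at 0.117 (0.0621 to 0.204) in WD total RNA. The mRNA of the shared alpha subunit was thus the rarest of the enzyme in total RNA of both diets. In the WD light fraction *Suclg1* reached 0.889 of *Sucla2* (0.649 to 1.22). Of the beta subunits, *Sucla2* was at 0.591 of *Suclg2* (0.426 to 0.813) in CD total RNA and at 0.556 (0.402 to 0.762) in WD total RNA. In the heavy fraction it was at 1.19 (0.849 to 1.67) with the CD, an interval that held 1, and at 1.42 (1.01 to 2.01) with the WD. *Suclg2* had levels of 48.5 and 53.9 FPKM in CD and WD total RNA, 60.8 and 65.0 FPKM in the light fractions, and 47.0 and 41.9 FPKM in the heavy fractions.

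*Ogdh* was set beside *Dlst*, the succinyltransferase of the same complex. *Dlst* was at 0.305 of *Ogdh* (95% interval, 0.220 to 0.417) in CD total RNA and at 0.246 (0.168 to 0.352) in WD total RNA. In the heavy fraction it was at 0.0714 (0.0302 to 0.145) with the CD and 0.124 (0.0703 to 0.204) with the WD, and in the light fraction at 0.283 (0.137 to 0.538) with the CD and 0.837 (0.627 to 1.11) with the WD. *Dlst* was lower than *Ogdh* in every library, and the WD light interval held 1. Mitochondrial and cytosolic forms differed too. *Mdh2* was at 0.755 of the cytosolic *Mdh1* (0.621 to 0.917) in CD total RNA, at 1.97 (1.37 to 2.86) in the CD light fraction and at 0.529 (0.433 to 0.645) in the CD heavy fraction. *Idh2* stayed between 0.0743 and 0.126 of the cytosolic *Idh1* in all 6 libraries.

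The change of the heavy to light ratio between the diets asked whether ribosome association differed with the WD. It uses all 4 gradient libraries, which the ratios above share. *Sucla2* was the 1 member at or above 1.5, with a WD value 1.59 times its CD value (95% interval, 0.984 to 2.56), against 27.7% of loci. *Suclg1* was the 1 member at or below 0.75, at 0.466 (0.0321 to 28.5), against 36.1% of loci. The interval left out 1 for 0 of the 9 members, while it did so for 11.9% of loci. *Mdh2* was at 0.922 (0.634 to 1.34), *Sdha* at 0.926 (0.660 to 1.30), *Ogdh* at 1.08 (0.704 to 1.64) and *Cs* at 1.34 (0.716 to 2.50). On the deposited scale, a change of ribosome association was thus not detectable at this depth for any member, and for *Mdh2*, *Sdha* and *Ogdh* the interval left out ratios of 2 and of 0.5. The median log2 change was 0.11 over the members and -0.02 over all loci. Rescaling to the same sum shifted the median of all loci by 0.30 for this change and multiplied the FPKM value at every locus by 1.26. The share of loci at or above 1.5 given above thus does not hold on the rescaled scale. On that scale 3 members (*Sucla2*, *Cs* and *Idh2*) were at or above 1.5, a count with no share of loci to set beside it here. The interval of *Sucla2*, at 2.00 (1.24 to 3.22), left out 1 there, so whether it held 1 depended on the scaling. That of *Ogdh*, at 1.35 (0.884 to 2.06), no longer left out 2. *Mdh2*, at 1.16 (0.796 to 1.68), and *Sdha*, at 1.16 (0.829 to 1.63), turned from below to above 1. With the thresholds set on CD over WD, 2 members (*Sucla2* and *Cs*) passed in the direction of a higher WD value, for which no share of loci is given here.

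With total RNA as the denominator, the WD value of the heavy to total ratio of *Sucla2* was 1.02 times its CD value (95% interval, 0.621 to 1.67) and that of *Ogdh* was 1.28 times (0.928 to 1.75). For *Suclg1* the direction was opposite to that with the light fraction, at 4.80 (0.455 to 239). *Sucla2* thus passed 1.5 with the light fraction as the denominator and not with total RNA. *Cs* and *Idh2* changed sign between the denominators, from 0.42 to -0.20 and from 0.37 to -0.52 on the log2 scale, with intervals that held 1 by either.

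**Figure D4:**
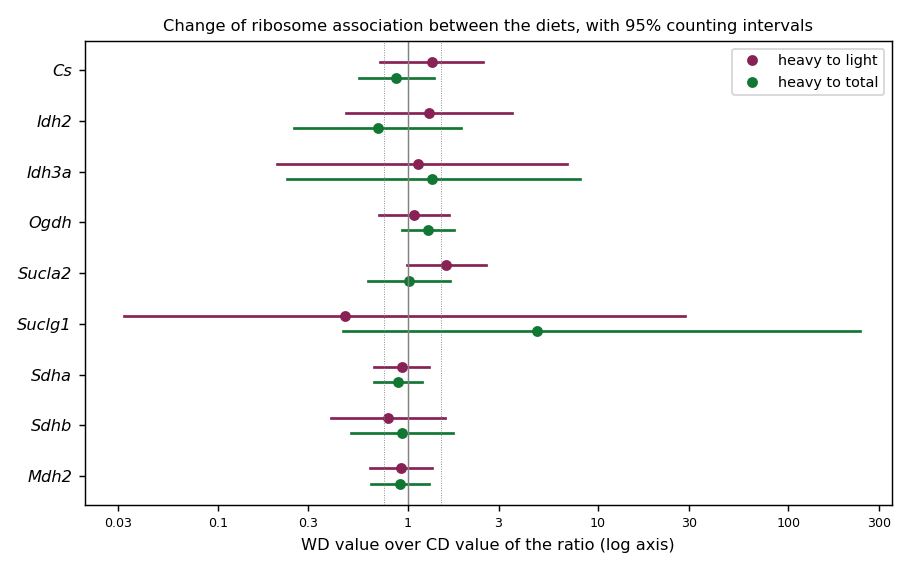
Points show the WD value over the CD value of the heavy to light ratio (purple) and of the heavy to total ratio (green) for each cycle mRNA, on a log axis, with 95% counting intervals as lines and dotted lines at 0.75 and 1.5. Every interval crosses 1, and the 2 points of *Suclg1*, 0.466 and 4.80, lie on opposite sides of it.

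The bounds that Cufflinks deposited with each FPKM value are wider than counting error. The bounds of CD and WD lay apart for 0 of 9 members in total RNA, for 1 (*Suclg1*) in the light fraction and for 0 in the heavy fraction. Over all loci they lay apart at 0.0392%, 0.48% and 0.0882%. Heavy and light fraction bounds overlapped for all 9 members in both diets, and failed to overlap at 1% of loci in the CD and 1.53% in the WD. The *Suclg1* bounds in the light fraction were 0 to 4.61 FPKM with the CD and 5.81 to 41.8 FPKM with the WD.

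Of 9 symbols listed for other enzymes and subunits of the cycle, 7 were measured. In total RNA 0 of the 7 passed either threshold, from *Dlst* at 0.759 of its CD level to *Dld*, the shared dihydrolipoamide dehydrogenase, at 1.14. These are small lists, to be read beside the shares of all loci given above for each threshold, and a ratio without an interval has no fragment numbers. In the light fraction 2 (*Dlst* and *Idh3g*) were at or above 1.5 and 2 (*Sdhc* and *Sdhd*) at or below 0.75, from *Sdhc*, a membrane anchor of succinate dehydrogenase, at 0.478 (95% interval, 0.360 to 0.637) to *Dlst* at 3.30 (1.79 to 6.63). The interval of *Idh3g* held 1. In the heavy fraction 1 was at or above 1.5, *Dlst* at 2.07 (0.849 to 5.55), and 0 at or below 0.75. In the CD 2 (*Fh* and *Idh3g*) had a heavy to light ratio of at least 1.5, led by fumarate hydratase *Fh* at 2.55 (1.93 to 3.39), and 1 of at most 0.75, *Dlst* at 0.716 (0.254 to 1.90). Their median log2 ratio was -0.07 in the CD and 0.43 in the WD. *Sdhd*, the other membrane anchor and the most abundant of these genes, was at 97.0 and 101 FPKM in CD and WD total RNA.

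Of 12 genes of pyruvate entry, 10 were measured, and 2 (*Pdk4* and *Mpc1*) were at or below 0.75 in total RNA and 0 at or above 1.5. The lowest was *Pdk4*, a kinase that inactivates pyruvate dehydrogenase, at 0.532 of its CD level (95% interval, 0.328 to 0.846), with 0.402 (0.233 to 0.690) in the light and 0.578 (0.352 to 0.933) in the heavy fraction. *Mpc1*, at 0.697 (0.328 to 1.44), had an interval that held 1. *Mpc2*, a subunit of the mitochondrial pyruvate carrier and the most abundant of the list, was at 617 FPKM with the CD and 580 FPKM with the WD in total RNA. Of 15 measured genes of anaplerosis and cataplerosis, 5 (*Gpt*, *Me3*, *Me1*, *Pck2* and *Pc*) were at or below 0.75 in total RNA and 1 (*Me2*) at or above 1.5, beside 22.7% and 17.7% of all loci. The intervals of *Me3* and *Pck2* held 1, and *Me1*, *Me2* and *Pc* had none. The ratios ran from *Gpt*, an alanine aminotransferase, at 0.436 (0.275 to 0.676) to *Pcca*, a subunit of propionyl-CoA carboxylase, at 1.46 among those with a mean of at least 10 FPKM. Pyruvate carboxylase *Pc*, which makes oxaloacetate, was at 313 FPKM with the CD and 228 FPKM with the WD in total RNA, a ratio of 0.728 beside that of 0.731 for *Mdh2*. In the CD 13 of the 15 had a heavy to light ratio of at least 1.5 and 0 of at most 0.75, and their median log2 ratio was 1.24 beside 0.57 for the 9 cycle enzymes. In the WD 10 of the 15 were at or above 1.5 and 1 at or below 0.75, and the medians were 0.93 and 0.94.

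The 3 cytosolic counterparts were also measured. *Aco1*, the cytosolic aconitase, was the 1 of 3 at or below 0.75 in total RNA at 0.705 of its CD level (95% interval, 0.557 to 0.890), and *Idh1* was the highest at 1.09 (0.836 to 1.43). *Mdh1* had levels of 193 and 155 FPKM in CD and WD total RNA and a heavy to light ratio of 6.74 (4.94 to 9.38) in the CD, beside 1.81 for *Mdh2*. Of 8 mitochondrial carriers, 5 were measured and 0 passed a threshold in total RNA. The most abundant, the aspartate-glutamate carrier *Slc25a13*, was at 147 and 151 FPKM in CD and WD total RNA and had a heavy to light ratio of 3.61 (2.96 to 4.45) in the CD. Of 5 sirtuins and proteases of the matrix, 1 was at or above 1.5 in total RNA (*Sirt3*, a deacetylase, at 7.40 FPKM from 10 fragments with the CD and 13.9 FPKM from 18 with the WD) and 1 at or below 0.75 (*Clpp*, a matrix protease, at 9.91 FPKM from 7 fragments and 1.48 FPKM from 1). The intervals of both held 1, from 0.824 to 4.56 for *Sirt3* and from 0.00331 to 1.16 for *Clpp*. Of 4 succinate dehydrogenase assembly factors, *Sdhaf2* alone had a mean of at least 10 FPKM and was at 1.39 (0.725 to 2.73) in total RNA.

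**Figure D5:**
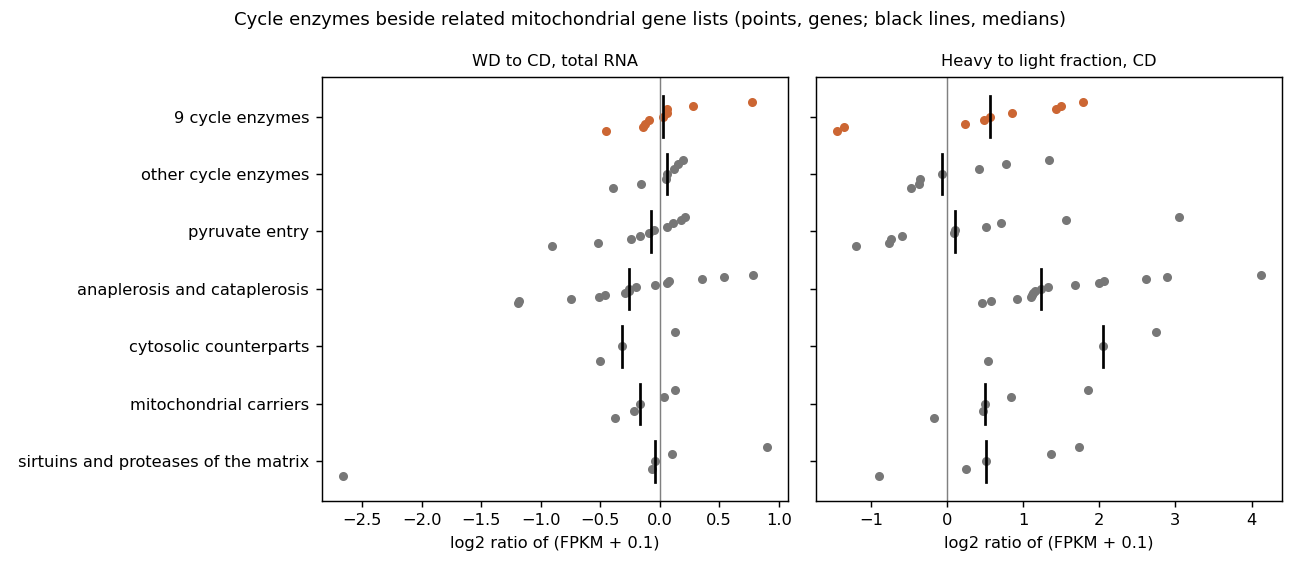
Points show the log2 ratio of FPKM plus 0.1 for each measured gene of the 9 cycle enzymes (orange) and of 6 related lists (grey), as WD to CD in total RNA (left) and heavy to light fraction in the CD (right), with list medians as black lines. The cycle enzymes have a median of 0.03 on the left and 0.57 on the right, where the other cycle enzymes have -0.07 and anaplerosis and cataplerosis has 1.24, a gap that the WD medians of 0.94 and 0.93 do not show.

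A mean profile was taken over the 9 members from log2 levels centred per gene. *Suclg1*, with WD over CD log2 changes of 3.58 in the light and 2.39 in the heavy fraction, weighs on this mean more than any other member. The median changes over the 9 were -0.04 and 0.09, so the mean does not stand for most members. No mean without *Suclg1* is given here. Among 3798 loci with a symbol found once and a mean of at least 10 FPKM, the 5 nearest to the mean profile over the 6 libraries were *Cdh2*, *Pxdc1*, *Dld*, *Ncoa2* and *Erbb3*. Their root mean square differences were 0.03, 0.04, 0.06, 0.07 and 0.09 on the log2 scale, against a median of 0.56 over the candidates. *Dld* is itself a component of the 2-oxoglutarate dehydrogenase complex, at 35.2, 40.2, 27.6, 30.5, 37.1 and 41.2 FPKM in the CD and WD libraries of total RNA, light and heavy fraction in turn. The members lay farther from their own mean, from 0.27 for *Sdhb* to 1.53 for *Suclg1*, so the mean profile is not that of any 1 of them.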

How the data were processed

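Pools of RNA from 3 rats per diet were sequenced as 6 libraries. According to the methods and labels, the authors aligned reads with TopHat to Rnor_6.0 and quantified them with Cufflinks and Cuffnorm, and the deposited values are FPKM per locus, normalized between libraries, with a lower and an upper bound. A separate route, with ribosomal RNA reads removed, is described for Riboseq, and which route the fraction libraries took is not clear. The annotation is not given in the sources used here.

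Python 3.11.15, numpy 2.4.6, pandas 2.3.3, scipy 1.17.1 and matplotlib 3.10.9 were used. The log2 changes were computed from FPKM plus 0.1, and so understate changes of low genes. Of 32158 loci with a symbol, the 10201 compared had status OK and averaged 1 FPKM or more. Fragment numbers are the smallest whole numbers that 1 step per gene and 1 factor per library explain. Such numbers were obtained for 79.6% of 13283 genes (those not at 0 in 2 libraries or more) and for 74.4% of the loci compared. The width of the deposited bounds matched the number (tolerance 0.002) for 82.3% of 41492 values with 30 fragments or fewer. Multiples would give the same FPKM, and the numbers are estimates. The inference and intervals were tested on simulated data. By inferred fragments, library totals were between 348788 and 1095142. Intervals are exact binomial (Clopper-Pearson) for 2 libraries and conditional on totals for the change of a ratio.

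The members and lists were chosen with earlier results of these data known. Named genes were all 9 members, *Suclg2*, the highest and lowest of each list with a mean of at least 10 FPKM, its most abundant gene, and the 5 nearest profiles. The pairs of subunits and of mitochondrial and cytosolic forms that were compared, the blood markers, and *Idh3g*, *Mpc1*, *Me1*, *Me2*, *Me3*, *Pck2*, *Glud1* and *Clpp* were named after their values were seen. Alternatives were other pseudocounts, filters, thresholds and scalings, heavy over total RNA, and members with a mean of at least 10 FPKM. After the data were seen, members without *Suclg1* and thresholds on the inverse ratio were added. A further gene that the rule names is not reported here and was left out of its list. A planned comparison of protein sequences was not run, as no protein sequences were used here. Promoter windows are from RefSeq (GRCr8), matched by symbol for 8 of 9 members.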

Additional observations from a re-analysis of the deposited data

How the results depend on the processing

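No paired analysis was possible because each combination of diet and RNA was 1 library, and for the same reason no replicate could be left out. Summing loci that share a symbol changed nothing, since 0 members had a repeated symbol. Of 225 counts and medians over the 9 genes under the alternatives, 199 kept their value within the limits set and 26 moved. Of 645 single changes, 633 were kept, 11 moved and 1 past a threshold reversed. Counted apart from those limits, 12 of the 645 turned sign, 7 with libraries rescaled to the same sum and 4 with heavy over total RNA. The 1 reversed was the change of the heavy to light ratio of *Suclg1*, which was 2.11 on the log2 scale with heavy over total RNA. With libraries rescaled to the same sum, the count at or below 0.75 in total RNA was 0, and 3 members had a change of the heavy to light ratio of at least 1.5. With thresholds of 2 and 0.5, total RNA had 0 members past either, the light and the heavy fraction had 0 at or below 0.5, and 0 had a change of the heavy to light ratio of at least 2. With only the 7 members with a mean of at least 10 FPKM, which leaves out *Suclg1* and *Idh3a*, whether or not changes were centred on loci of that mean, the counts at or above 1.5 in the light and the heavy fraction were 0, and so were the counts at or below 0.75 for the heavy to light ratio in either diet and for its change. Without *Suclg1*, an alternative chosen after seeing the data, 0 members were at or above 1.5 in the light or the heavy fraction, 1 (*Idh3a*) was at or below 0.75 for the heavy to light ratio in each diet, and 0 for its change. With the thresholds set on the inverse ratio, also chosen after seeing the data, 0 members were past the lower threshold in total RNA and 1 in the light fraction, and 2 had a change of the heavy to light ratio past the upper one. Shares of loci for the counts under rescaling and on the inverse ratio are not given here. With heavy over total RNA, 2 members were at or above 1.5 in the WD, as were 2821 of 10201 loci. Apart from members dropped by construction, the cause was not tested. Where *Suclg1* or *Idh3a* decide a count, it rests on 1 to 28 fragments outside the WD light value of *Suclg1*. Low depth, with medians of 9 to 23 inferred fragments per locus, limits each statement on these genes.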
